A study of Mus musculus with 8 samples.

Results

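Heat shock proteins and their partner chaperones were described in the livers of 8 female Ames dwarf mice. Members were chosen by gene symbol alone: symbols starting with Hspa, Hspb, Hspd, Hspe, Hsph, Hsp90, Dnaja, Dnajb or Dnajc, the numbered Cct genes, Tcp1, Hsf1 and Stip1, without the endoplasmic reticulum genes Hspa5, Hsp90b1 and Dnajb9. The rule found 76 probe sets for 54 genes among 12488 probe sets, of which 10833 carried a single symbol, for 8251 genes. Of the 76 probe sets, 54 for 42 genes were bright enough to be tested. Their mean log2 signal lay above the median over all non-control probe sets, which corresponds to a signal of 162. Hsf1, the transcription factor of the heat shock response, and Hsp90ab1 were not analysed here.

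All mice were homozygous for the Ames dwarf allele (df/df), female, fed a standard pelleted diet without restriction, and killed at 24 to 26 months of age. The mutation leaves the pituitary without cells that make growth hormone, prolactin or thyrotropin, so every liver came from an animal short of these hormones. Each liver was measured on its own Affymetrix U74Av2 array, and the livers are numbered 1 to 8 as in their titles. The samples form 1 group, and the question was how far chaperone transcripts differed from liver to liver. No liver was measured on more than 1 array, so differences between livers include measurement error.

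Chaperones bind unfolded proteins and help them to fold, assemble or be degraded. HSP70 proteins work in ATP-driven cycles that J proteins (the Dnaj genes) start and that exchange factors such as the HSP110 proteins reset, and they pass some clients to HSP90 through the adaptor encoded by Stip1. Chaperonins are closed barrels: the CCT complex folds actin and tubulin in the cytosol, and HSP60 with its lid HSP10 folds proteins in mitochondria. Under heat or other protein stress, HSF1 binds inverted repeats of GAA in heat shock promoters.

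The members reached beyond the cytosol. Of the 42 tested genes, 32 encode proteins of the cytosol or nucleus, 5 mitochondrial proteins (Hspa9, Hspd1, Hspe1, Dnaja3 and Dnajc15) and 4 J proteins of the endoplasmic reticulum (Dnajb11, Dnajc1, Dnajc3 and Dnajc10). Dnajc4 was left without a compartment. Hspbp1 is an exchange factor of HSP70 and Hspb11 encodes a part of the intraflagellar transport machinery, although their symbols resemble those of the small heat shock proteins.

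The arrays had median signals of 155.6 to 180.75 and were already scaled, with trimmed means that differed by 0.16%. Correlations between arrays over tested probe sets ran from 0.907 to 0.973. Liver tissue was borne out by its markers: the summed signal of 4 hepatocyte genes (Alb, Ttr, Apoa1 and Cps1) lay between 74015 and 102060, and no cholangiocyte marker passed a signal of 42.3. Livers 4 and 8 stood apart, with summed signals of 7 interferon-response genes of 51735 and 40007 against 3211 to 13729 in the others. The summed signal of 8 macrophage and Kupffer cell genes was also highest there, at 14823 and 10186 against 3070 to 5946 elsewhere, with 6 of the 8 genes bright enough to be tested. Fewer cells of a type and less RNA per cell cannot be told apart in such bulk samples. Spike-in controls averaged 10.70 to 10.88 (log2 signal) on arrays 1 to 4 and 10.18 to 10.46 on arrays 5 to 8, so relations between genes are also given within these arrays.

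Few chaperone transcripts differed between livers by more than is typical for their signal. Each probe set's variance of log2 signal over the 8 livers was compared with the typical variance at its signal by a one-sided chi-square test with Benjamini-Hochberg adjustment over all 6211 tested probe sets. Only 1 of the 54 member probe sets (1.85%) passed an adjusted p of 0.05, against 12.4% of all tested probe sets. With the brightest probe set of each gene, 0 of 42 genes passed, against 11.3% of 4819 genes, and 3 of the 42 (7.14%) had an unadjusted p under 0.05, against 18.3%. limma's variance test, which compares each variance with the spread of variances, called 0 of the 54 probe sets (1 at an unadjusted p under 0.05) and 0 of the 6211 (425 at an unadjusted p under 0.05). On simulated data with variances as unequal as these, limma's test recovered no probe set whose spread had been raised, so its counts of 0 carry no information on stability.

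The median SD of log2 signal over livers was 0.21 for the 42 genes and 0.23 for all 4819 genes, and the median ratio of the highest to the lowest liver was 1.52-fold against 1.61-fold. The SD exceeded the typical one at its signal in 12 of 42 genes (28.6%), against 43.7% of all genes. The gap in SD was not seen without livers 4 and 8: the median SD was 0.21 for members and 0.21 for all genes, and 3 of 55 member probe sets (5.45%) were called, against 9.43%. The member count also moved with single livers, to 4 of 55 without liver 5 (7.27%, against 12.2%). It was 2 without liver 2 (3.77%, against 11%), liver 6 (3.64%, against 11.2%) or liver 8 (3.64%, against 11.1%).

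**Figure D1:**
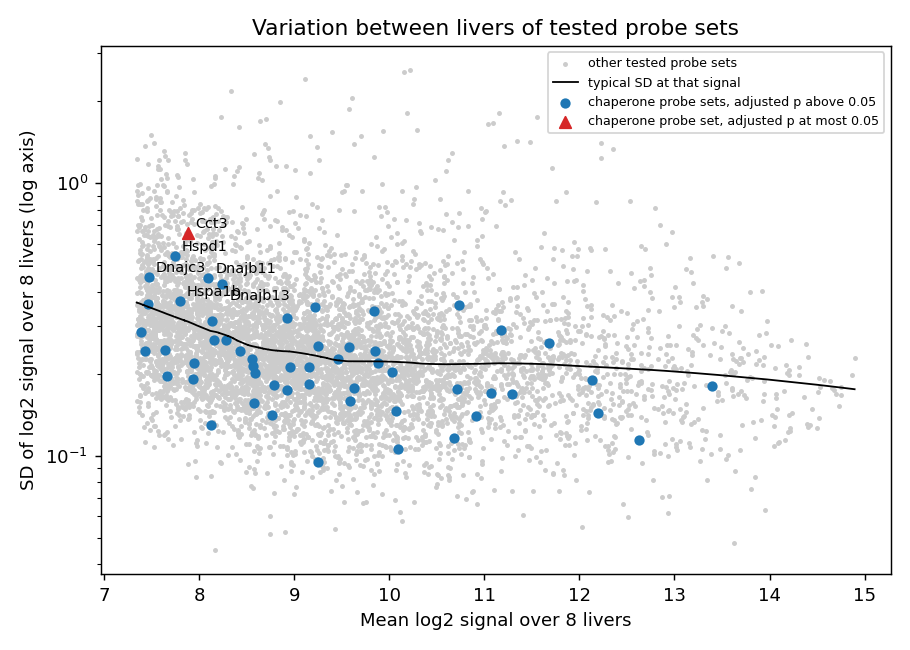
SD of log2 signal over the 8 livers (log axis) against mean log2 signal for each tested probe set, with chaperone probe sets in blue, the 1 with an adjusted p of at most 0.05 as a red triangle, other probe sets in grey and the typical SD as a line. Most chaperone points lie at or below the line, and Cct3, Hspd1, Dnajc3, Dnajb11 and Dnajb13 are among the highest.

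As a set, the members did not rise and fall together. The median Pearson correlation over the 861 pairs of tested member genes was 0.03, against 0.01 over all pairs of tested genes. Median correlations within classes were 0.57 for the 3 classical mitochondrial chaperones, 0.36 for the 4 J proteins of the endoplasmic reticulum, 0.10 for J proteins A and B, -0.01 for the CCT subunits and -0.08 for J proteins C. These are descriptions over the same 8 arrays, and classes of few genes give few pairs.

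Among the livers, liver 6 was lowest for more members than its share of all genes. It held the lowest value of 8 of the 42 genes (19%, against 7.74% of all tested genes) and the highest value of none (against 8.26%). The 8 were Hspa8, Hsp90aa1, Hsph1, Stip1, Dnaja1, Tcp1, Cct5 and Dnajc15. With arrays scaled to a common median, liver 6 was lowest for 9 genes (21.4%, against 6.45%) and highest for 1, and after quantile normalization lowest for 8 (19%, against 7.95%) and highest for 1. Without livers 4 and 8 the excess was smaller, with liver 6 lowest for 9 of 43 genes (20.9%, against 12.9%). Liver 5 was lowest for 9 of the 42 members (21.4%, against 16% of all genes). Liver 6 also had the lowest summed signal of the hepatocyte markers, 74015, but livers 4 and 8 were close, at 76233.5 and 77295. Alb and Apoa1 were lowest in liver 6, but Ttr was lowest in liver 4 and Cps1 in liver 8. After livers 4 and 8, liver 6 had the highest summed signal of the macrophage genes, 5946, with liver 1 close at 5566.5. The part of these in the chaperone values was not tested.

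**Figure D2:**
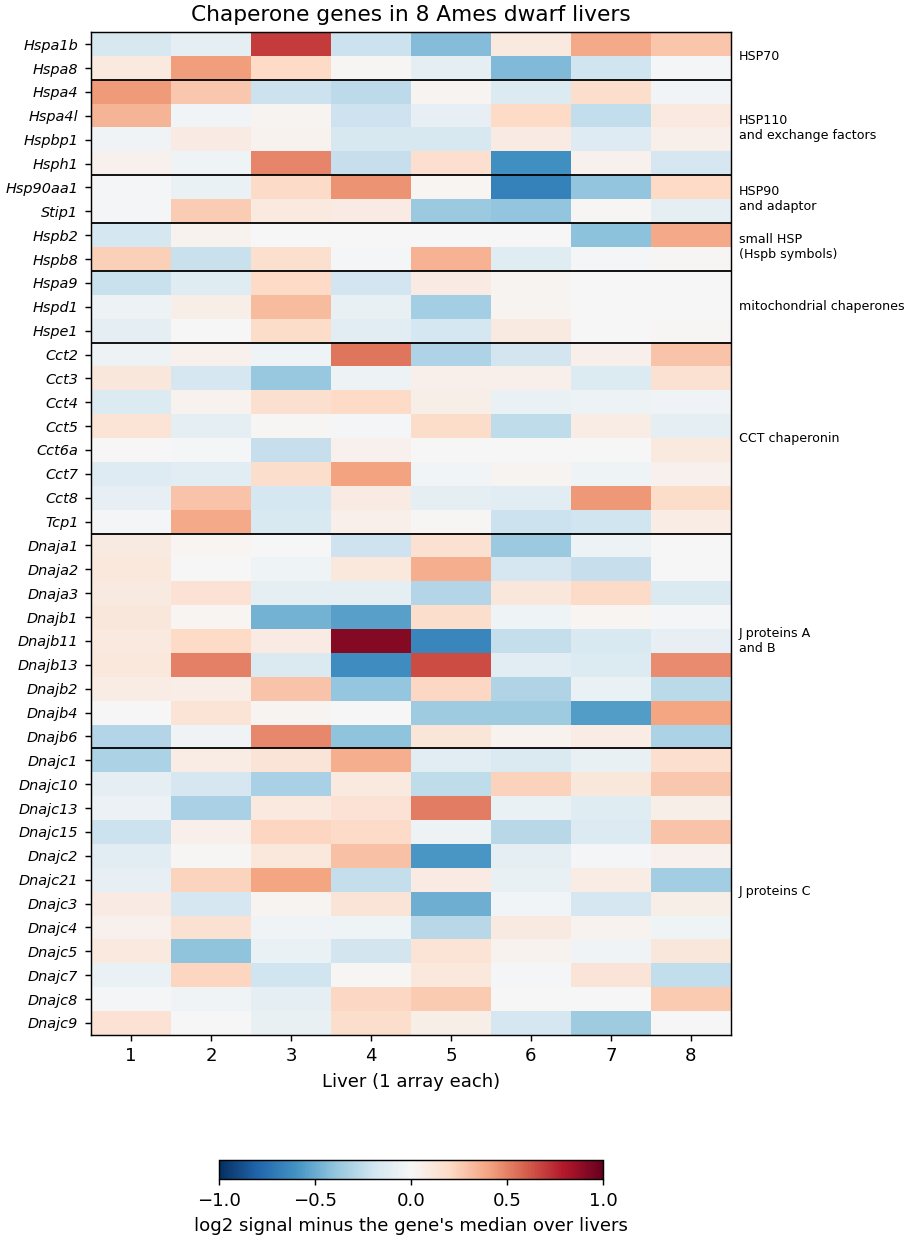
Log2 signal of each tested chaperone gene in each liver minus the gene's median over the 8 livers, as colour from blue (lower) to red (higher), with genes grouped by class. Liver 6 is blue for the HSP90 and adaptor class and for Hspa8 and Hsph1, while the CCT rows are mostly pale.

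Among HSP70 genes, the constitutive Hspa8, which encodes HSC70, gave signals of 2434 to 4411 with a median of 3301 (SD 0.26 on the log2 scale, n = 8). Liver 2 was highest and liver 6 lowest, a 1.81-fold range that did not pass the test (adjusted p = 0.629, typical-variance test). The stress-inducible Hspa1b was dim, at 157 to 344.5 with a median of 212.7, and its 2.19-fold range did not pass either (adjusted p = 0.704, typical-variance test). Livers 3 and 7 were its highest and liver 5 its lowest. Its neighbour Hspa1a stayed under the limit for testing at 99.3 to 195.2, as did Hspa1l, Hspa2 and Hspa14.

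The promoters of the neighbours Hspa1a and Hspa1b, both classical heat shock genes, are shown because they are nearly the same. In the RefSeq promoter windows of assembly GRCm38.p6, 247 of the 250 bases before their starts (98.8%) were identical. The 120 bases from 150 to 31 bases before the start read the same at both genes, chr17:34972187-34972306 (minus strand, Hspa1a) and chr17:34959269-34959388 (minus strand, Hspa1b), with the letters GAANNTTC in capitals.
Hspa1a and Hspa1b: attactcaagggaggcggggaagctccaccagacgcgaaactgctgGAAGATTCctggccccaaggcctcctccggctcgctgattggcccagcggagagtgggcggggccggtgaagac

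The exchange factors and HSP110 proteins, which reset the HSP70 cycle, differed widely in range among themselves. Hspbp1 spanned 993.6 to 1175.5 with a median of 1112.3, a 1.18-fold range, the narrowest of the 42 genes as deposited, but 1.31-fold with median scaling, where Cct6a was narrower. The Hspbp1 probe set, 100987_f_at, is marked for sequence shared with other genes, so its evenness may not be that of Hspbp1 alone. Hsph1, the heat-inducible HSP110, spanned 325.9 to 700.2 with a median of 500.1 (SD 0.32 on the log2 scale, n = 8). Liver 3 was highest and liver 6 lowest for Hsph1, and the 2.15-fold range did not pass (adjusted p = 0.387, typical-variance test). Hspa4 spanned 749.5 to 1205.3 by its brightest probe set, 96594_at, and Hspa4l 170 to 254.3, both highest in liver 1, and neither passed. Of the other tested Hspa4 probe sets, 100353_g_at was also highest in liver 1, but 92571_at and 161745_f_at were highest in liver 4.

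Hsp90aa1, the inducible cytosolic HSP90, spanned 1089 to 2384 with a median of 1742 (SD 0.36 on the log2 scale, n = 8). Livers 4, 8 and 3 were highest, livers 6 and 7 lowest, and the 2.19-fold range fell short of the threshold (adjusted p = 0.0623, typical-variance test). The call turned on the setting: adjusted p was 0.0436 after quantile normalization, 0.0487 without probe sets of shared sequence, 0.0194 without liver 5 and 0.691 without liver 6, over a range of 0.0194 to 0.691 in the settings of this test. Stip1, which links HSP70 to HSP90, spanned 296.3 to 465.4 with a median of 389.9. It was highest in liver 2 and lowest in liver 6, with liver 5 next, and did not pass.

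Of the genes with Hspb symbols, other than Hspbp1, only Hspb2 and Hspb8 were bright enough to test. Hspb8, which works with Bag3 in clearing misfolded proteins, spanned 3727 to 5539 with a median of 4358 by its brighter probe set, 160139_at. That probe set was highest in liver 5 and lowest in liver 2. The dimmer 162448_f_at, at 114.8 to 212, was the reverse (r = -0.67, exact permutation test, adjusted p = 0.279). Hspb2 spanned 188.5 to 324.8 with a median of 250.3 by 103215_g_at, a probe set marked for shared sequence. Neither gene passed. The other Hspb2 probe set, 103214_at, lay between 4.9 and 11.8, with 6 of its 8 values at or under the floor of 11.2. Whether Hspb2 itself was measurable thus rests on the marked probe set. Hspb1, the classical heat-inducible HSP25 of mice, was dim, at 5.4 to 60.1 with a median of 33.5, and 3 of its 8 values lay at or under the floor of 11.2 set on all values. Hspb11 lay between 32 and 212.5.

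By the brightest probe set of each gene, none of the 3 classical mitochondrial chaperones had an SD above the typical one at its signal, against 43.7% of all tested genes. Hspd1, which encodes HSP60, spanned 8573 to 13485 with a median of 10836.5 (SD 0.18 on the log2 scale, n = 8). Hspe1, which encodes its lid HSP10, spanned 5672 to 7244 with a median of 6396 (SD 0.11, n = 8). Hspa9, the mitochondrial HSP70 that imports and folds proteins in the matrix, spanned 4099 to 5508 with a median of 4794 (SD 0.14, n = 8). All 3 were highest in liver 3, also with median scaling, but after quantile normalization Hspe1 was highest in liver 6. Hspd1 and Hspe1 were both lowest in liver 5 and Hspa9 in liver 1, but with median scaling Hspe1 and Hspa9 were lowest in liver 4. None of the 3 passed the test.

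Hspd1 and Hspe1 followed each other from liver to liver. Their Pearson correlation was 0.90 (exact permutation test over 40320 pairings, p = 0.00122, adjusted p = 0.00972 over the 8 pairs tested), and the rank correlation (Spearman's rho) was 0.86 (p = 0.0107 by the same exact permutation, adjusted p = 0.0857). Pearson's r was 0.79 without livers 3 and 5, which lay farthest from the Hspd1 median, 0.999 within arrays 1 to 4 and 0.96 within arrays 5 to 8. Leaving out liver 3 gave r = 0.81 and ended the call (exact permutation test, adjusted p = 0.075). A dimmer Hspd1 probe set, 161140_r_at, did not share this: it spanned 109 to 330 with its lowest value in liver 4 and correlated with the bright one at r = 0.23. The SD of 161140_r_at was 0.54, above the typical 0.32, but it did not pass as deposited (adjusted p = 0.053, typical-variance test). It passed with median scaling (adjusted p = 0.0177) and after quantile normalization (adjusted p = 0.0165) by the same typical-variance test.

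These genes lie head to head and share a promoter, so the sequence between them is shown. On GRCm38.p6 the starts of Hspe1 and of 1 of the annotated forms of Hspd1 are 216 bases apart, with 215 bases between them at chr1:55087933-55088147 (plus strand). Capitals mark overlapping copies of the heat shock element letters GAANNTTC followed by NN and a further GAA, read on both strands.
Hspd1 and Hspe1: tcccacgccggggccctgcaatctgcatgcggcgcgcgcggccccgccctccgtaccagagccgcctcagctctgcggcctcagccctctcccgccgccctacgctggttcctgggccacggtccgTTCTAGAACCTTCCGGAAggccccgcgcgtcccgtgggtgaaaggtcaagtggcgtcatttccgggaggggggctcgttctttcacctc

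**Figure D3:**
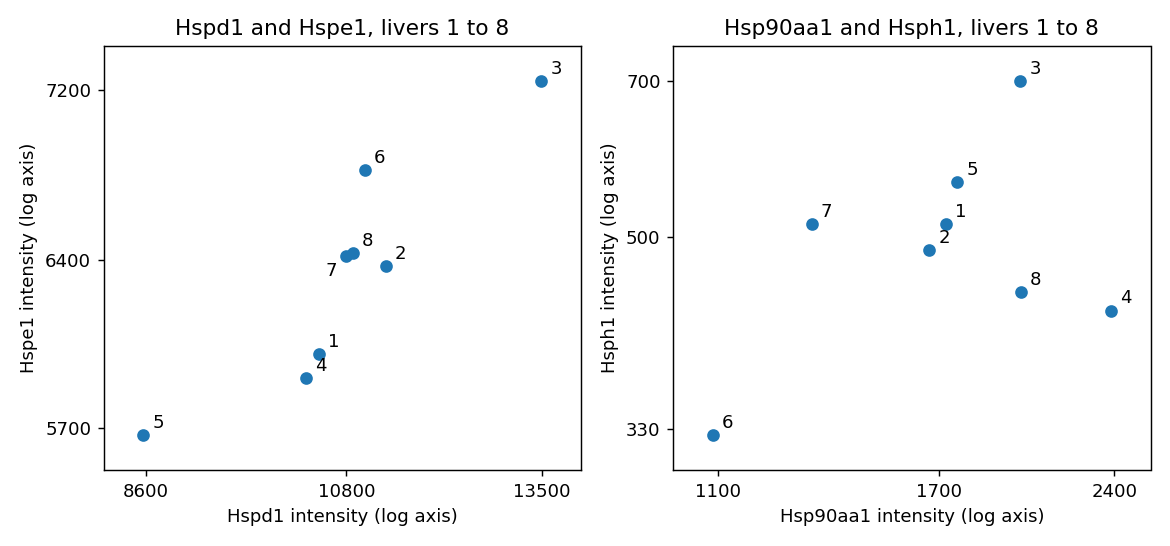
Signal of Hspe1 against Hspd1 (left) and of Hsph1 against Hsp90aa1 (right) on log axes, 1 point per liver with its number. The Hspd1 and Hspe1 points run from liver 5 at the bottom to liver 3 at the top (r = 0.90), while livers 4 and 8 lie below the line of the others in the Hsp90aa1 and Hsph1 plot (r = 0.44).

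Of 14 partner pairs listed, 9 had both genes tested and 8 were pooled. Hsp90aa1 and Hsph1, both heat-inducible, correlated at r = 0.44 (exact permutation p = 0.27, adjusted p = 0.539, rho = 0.10). Without livers 4 and 8 their r was 0.89 (exact permutation test, adjusted p = 0.0333), and without liver 6 of the 8 it was -0.19. Within arrays 1 to 4 it was -0.20 and within arrays 5 to 8 0.60. Hspa8 correlated at 0.57 with Dnaja1 and at 0.56 with Hsph1 (exact permutation test, adjusted p = 0.393 for each). Without livers 2 and 6, the farthest from the Hspa8 median, these were 0.01 and 0.41, and within arrays 1 to 4 and 5 to 8 they were 0.48 and 0.88 for Dnaja1 and 0.22 and 0.73 for Hsph1. The other r values were 0.29 for Hspa9 and Hspd1, 0.29 for Hspa1b and Hsph1, 0.08 for Tcp1 and Cct3, and -0.19 for Cct2 and Cct5, and none passed. Dnajb1 values fell into separate groups of livers, so its pair with Hspa1b was not pooled.

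The CCT chaperonin varied little between livers. By the brightest probe set of each gene, none of its 8 tested genes had an SD above the typical one at its signal, against 43.7% of all tested genes. Their median range was 1.45-fold, against 1.61-fold. Tcp1 (subunit alpha) spanned 212.2 to 318.7, Cct2 244.4 to 437.5 and Cct8 797.1 to 1217.6. Cct4 spanned 1475 to 1857, Cct5 1631 to 2208 and Cct7 1491 to 2156. As deposited, the narrowest were Cct6a, at 524.2 to 658.1, and Cct4, each with a 1.26-fold range. The tested Cct6a probe set, 162279_f_at, is marked for shared sequence, so its evenness may not be that of Cct6a alone.

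The subunits are known to assemble into the ring in equal numbers, and no liver had the highest signal for all of them. Cct2, Cct4 and Cct7 were highest in liver 4, Cct3 and Cct6a in liver 8, Tcp1 in liver 2, Cct5 in liver 5 and Cct8 in liver 7. With median scaling the highest was liver 3 for Cct4, liver 1 for Cct3 and liver 5 for Cct6a. Cct3, Cct6a and Cct8 were lowest in liver 3, but with median scaling Cct8 was lowest in liver 6. The testis form Cct6b was under the limit for testing, at 109.9 to 186.2.

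The 1 member probe set that passed the variability test was a Cct3 probe set marked for sequence shared with other genes, 161238_f_at. It spanned 91.2 to 326.6 with a median of 307.8, a 3.58-fold range (adjusted p = 0.000842, typical-variance test). Livers 7, 8 and 1 were low, at 91.2, 170.3 and 200.7, and the other 5 lay between 307.8 and 326.6. Without liver 7 the range was 1.92-fold and the call was lost (adjusted p = 0.545, typical-variance test). The 2 brighter Cct3 probe sets were 98446_s_at, also marked for shared sequence, and 98153_at, which is not. They spanned 626.7 to 906.7 and 471 to 744.8, did not pass, and correlated with 161238_f_at at r = -0.16 and 0.04.

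J proteins of classes A and B, which deliver clients to HSP70, had a median range of 1.64-fold, against 1.61-fold over all tested genes. The SD was above the typical one in 5 of 9 genes (55.6%, against 43.7% of all tested genes). Dnaja1, the main HSC70 partner of its class, spanned 1994 to 2871 with a median of 2583. It was highest in liver 5 and lowest in liver 6, and did not pass. The heat-inducible Dnajb1 (HSP40) spanned 209.5 to 343.6 with a median of 304.6. Livers 4 and 3 were low, at 209.5 and 218.9, and the other 6 lay between 294.8 and 343.6.

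Dnajb11 and Dnajb13 had the widest ranges of the 42 genes. Dnajb11, a co-chaperone of BiP in the endoplasmic reticulum, spanned 171.9 to 509.2 with a median of 270.2, and its 2.96-fold range did not pass (adjusted p = 0.121, typical-variance test). Liver 4 alone was above 309.7, and without it the range was 1.80-fold. Dnajb13, an axonemal J protein of cilia and sperm tails, spanned 185.1 to 446.1 with a median of 285.2 (adjusted p = 0.137, typical-variance test). Liver 5 was highest and liver 4 lowest, and without liver 4 the range was 1.74-fold.

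Dnajb6, which keeps polyglutamine proteins from aggregating, spanned 1811 to 3329 with a median of 2389, highest in liver 3 and lowest in liver 4. Its 1.84-fold range did not pass (adjusted p = 0.393, typical-variance test). Dnajb2 spanned 604.5 to 963.1 and Dnajb4 203 to 393.3, while Dnaja2 and the mitochondrial Dnaja3 had ranges of 1.51-fold and 1.40-fold. Dnajb3, Dnajb5 and Dnajb8 were under the limit for testing.

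**Figure D4:**
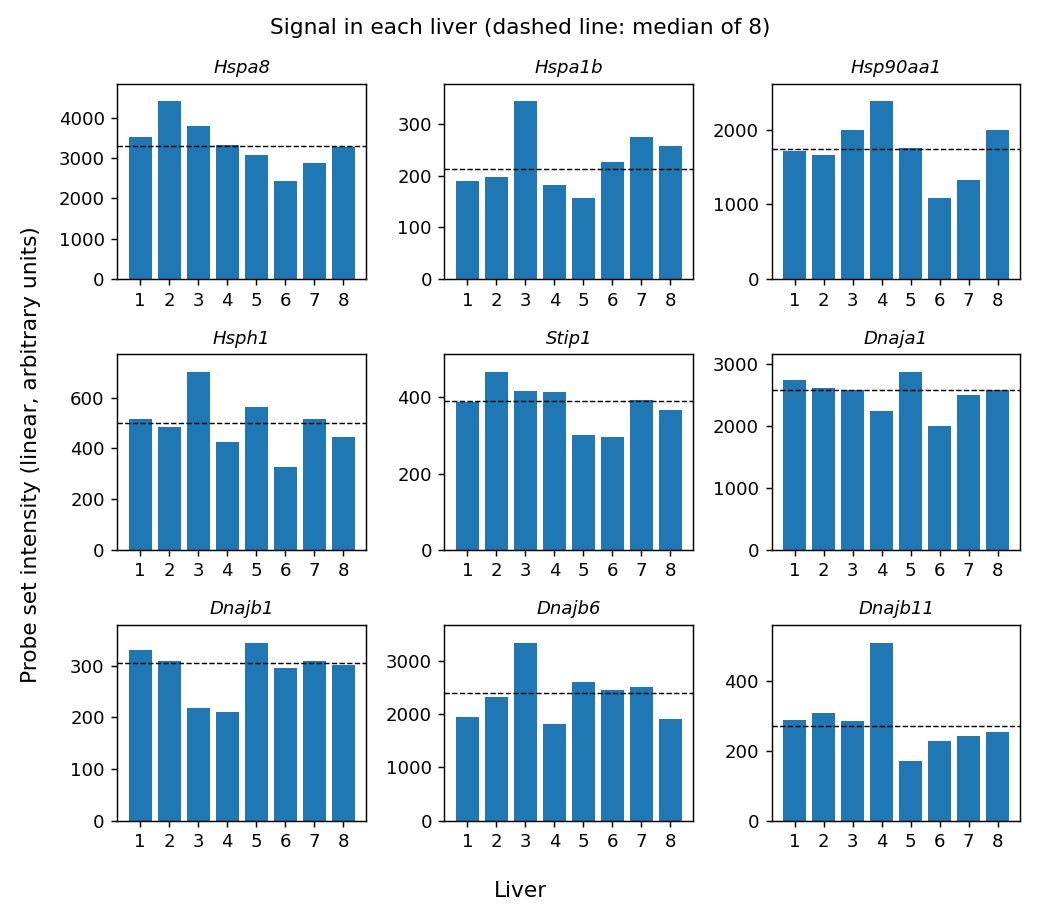
Linear signal of 9 chaperone genes in each of the 8 livers, with the median as a dashed line and each axis starting at 0. Liver 6 has the lowest bar for Hspa8, Hsp90aa1, Hsph1, Stip1 and Dnaja1, and liver 4 the tallest for Hsp90aa1 and Dnajb11.

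J proteins of class C, a mixed class that shares little beyond the J domain, had a median range of 1.50-fold. In this class 2 of 12 genes were above the typical SD (16.7%, against 43.7% of all tested genes). Dnajc8, a nuclear protein found with the spliceosome, spanned 959.3 to 1227 (1.28-fold) by its brighter probe set, 95699_f_at. Its other probe set, 95700_r_at, spanned 557.7 to 1185.5 (2.13-fold), correlated with the first at r = -0.48 and was called without livers 4 and 8, so the evenness of Dnajc8 rests on 1 probe set. Dnajc2, which works at the ribosome, spanned 420.3 to 770.1 (1.83-fold) and Dnajc13 156.3 to 279.1 (1.79-fold). Dnajc21 had a 1.67-fold range, but 1.94-fold with median scaling and 1.96-fold after quantile normalization. Dnajc5 (cysteine string protein), Dnajc7, Dnajc9, Dnajc15 and Dnajc4 had ranges of 1.35-fold to 1.48-fold. Dnajc11 and Dnajc17 were under the limit for testing, and Dnajc11 spanned 81 to 361.

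The 4 J proteins of the endoplasmic reticulum leaned towards liver 4. Dnajb11, Dnajc1 and Dnajc3 were highest there, and Dnajc10 in liver 8. Dnajc3, an inhibitor of stress kinases of the unfolded protein response, spanned 778.6 to 1194, Dnajc1 301.9 to 484.6 and Dnajc10, a disulphide reductase, 568.1 to 861. Of all tested genes, 17.7% had their highest value there. With median scaling 2 of the 4 were highest in liver 4, against 12.7% of all genes. Liver 4 also had the highest macrophage and interferon signals given above, and their part in these values was not tested.

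Heat shock element letters were more frequent before member genes than before genes in general. Promoter windows from 250 bases before to 50 after the start were found for 46 of the 54 genes. Hsp90aa1, Hspa8, Hspa9, Hspb2, Cct4, Dnajc2, Dnajc5 and Dnajc11 had no window and were not searched. GAANNTTC, which reads the same on both strands, occurred in 10 of the 46 (21.7%) and in 9.04% of 27025 genes. A longer motif, the same letters followed by NN and a further GAA, was searched on both strands and contains the shorter. It occurred in 4 (8.70%), Hspd1, Hspe1, Hsph1 and Dnajb6, against 0.662%. Hspd1 and Hspe1 share 1 region and the upstream bases of Hspa1a and Hspa1b are nearly identical, so these are fewer independent sequences. A match is a description of letters and not a binding site.

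The windows of Dnajb6 (chr5:29735748-29735867, plus strand, 150 to 31 bases before the start), Hsph1 (chr5:149636278-149636307, minus strand, 9 to 38 bases after the start) and Hspb1 (chr5:135887769-135887888, plus strand, 150 to 31 bases before the start) on GRCm38.p6 are shown to set these letters beside the signals, with the motifs in capitals.
Dnajb6: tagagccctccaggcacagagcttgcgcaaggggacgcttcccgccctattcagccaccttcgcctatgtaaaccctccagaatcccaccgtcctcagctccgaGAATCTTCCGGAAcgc
Hsph1: ctgcagaTTCTGGAAAGTTCtcctcagtag
Hspb1: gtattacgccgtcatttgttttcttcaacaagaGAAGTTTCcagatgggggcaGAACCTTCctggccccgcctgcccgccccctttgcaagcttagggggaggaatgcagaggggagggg

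The 4 genes with the longer motif, set side by side after their values were seen, were all highest in liver 3 by their brightest probe sets, except that Hspe1 was highest in liver 6 after quantile normalization. The dimmer probe sets did not share this, with Dnajb6 104625_at highest in liver 5 and Hspd1 161140_r_at in liver 1. The lowest was liver 5 for Hspd1 and Hspe1 (liver 4 for Hspe1 with median scaling), liver 6 for Hsph1 and liver 4 for Dnajb6. Liver 3 held the highest value of 8 of the 42 members (19%, against 11.4% of all tested genes) and of 13 with median scaling (31%, against 22%). Of the tested members with only the shorter motif, Hspa1b was highest in liver 3, Cct2 in liver 4, and Dnaja1 and Hspb8 in liver 5. Hspb1, with the shorter motif at 2 places, was the dim gene described above. Hspa9, also highest in liver 3, had no promoter window to search. A relation between the motifs and the signals was not tested.

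Probe sets of the same member gene often disagreed, which limits how far small differences between livers can be read. Over 17 pairs of tested probe sets in 8 genes, the median r across livers was -0.16 and 7 were above 0, whereas over 869 pairs in 671 other genes the median was 0.25 and 595 were above 0. Most of the 17 pairs come from Hspa4, Cct3 and Dnajc3 and share probe sets, so they are not independent. In Hspa4, 96594_at and 161745_f_at ran opposite ways (r = -0.89, exact permutation p = 0.00231, adjusted p = 0.0392 over the 17 pairs; rho = -0.98, exact permutation adjusted p = 0.00675). The bright 96594_at was highest in liver 1 and lowest in liver 4, and the dim 161745_f_at, at 133.7 to 286.6, was the reverse. Without livers 1 and 4, r was -0.90, and it was -0.94 within arrays 1 to 4 and -0.62 within arrays 5 to 8. A further Hspa4 probe set not marked for shared sequence, 92571_at, at 262 to 464.9, was also highest in liver 4 and lowest in liver 1. Its r with 96594_at was -0.78 (exact permutation test, adjusted p = 0.104), and -0.36 without livers 1 and 4. The 2 Dnajb6 probe sets, neither marked for shared sequence, correlated at r = 0.63 (exact permutation test, adjusted p = 0.308).

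**Figure D5:**
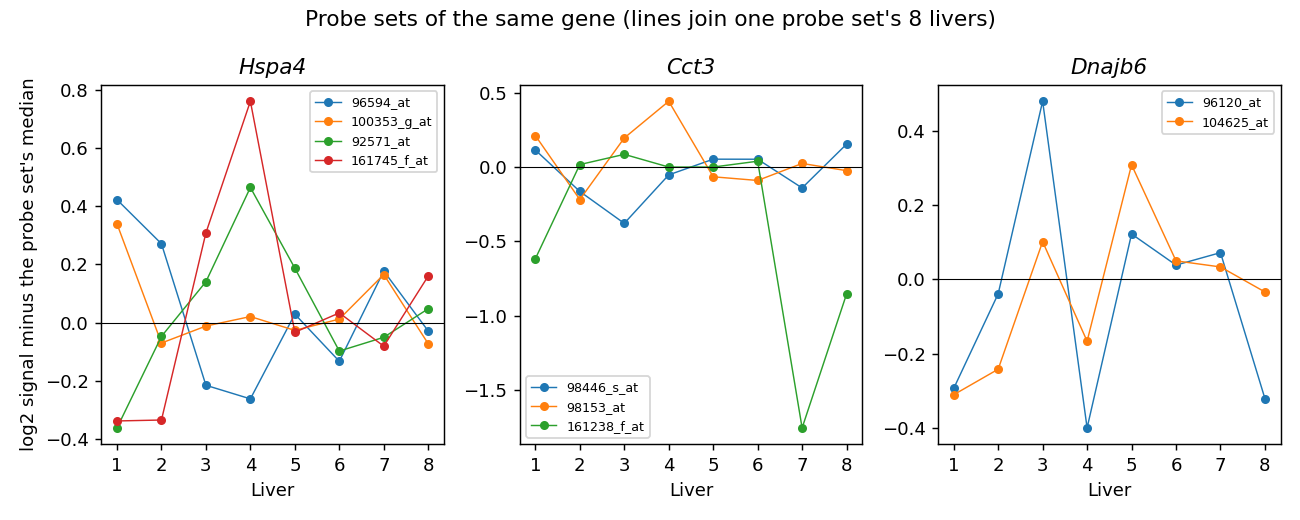
Log2 signal minus the probe set's own median in each liver for the tested probe sets of Hspa4, Cct3 and Dnajb6, with lines joining the 8 livers of a probe set as a guide to the eye. The Hspa4 lines cross (96594_at against 161745_f_at, r = -0.89), whereas the 2 Dnajb6 lines run more alike (r = 0.63).

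Other genes of the chaperone pathway came from a list of 41. Their share of calls was near that of all tested genes, but their SDs were nearer those of the members. The median SD was 0.21, against 0.21 for members and 0.23 for all tested genes. The SD exceeded the typical one in 7 of the 23 tested (30.4%), against 28.6% of members and 43.7% of all tested genes. Of the 23 that were tested, 3 passed (13%, against 11.3% of all genes): Bag2, Grpel2 and Hmox1. Bag2, an inhibitor of the ubiquitin ligase CHIP, spanned 302.1 to 1033 with 161129_r_at (3.42-fold, adjusted p = 6.05e-05, typical-variance test), but a further Bag2 probe set spanned only 1.46-fold and did not pass. Grpel2, an exchange factor of the mitochondrial HSP70, spanned 379.9 to 913.5 with a median of 527.5 (2.40-fold, adjusted p = 0.000554, typical-variance test), highest in liver 6 and lowest in liver 4.

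Hmox1, the heme oxygenase also known as HSP32, spanned 717.5 to 2294 with a median of 1231 (3.20-fold, adjusted p = 0.000172, typical-variance test). Liver 4 was highest, as it was for the macrophage and interferon genes, and without it the range was 1.85-fold and the call was lost (adjusted p = 0.113, typical-variance test). The HSP90 co-chaperones Cdc37 and Fkbp4 had ranges of 1.59-fold and 1.68-fold, and the HSP70 partners Bag3, St13 and Stub1 of 1.58-fold, 1.28-fold and 1.62-fold, and none of these passed. Fkbp5, a glucocorticoid-induced HSP90 partner, spanned 412.7 to 833.6 and did not pass. Hsbp1, which binds HSF1, spanned 425.8 to 683.2 and was lowest in liver 6. Of the 23 tested pathway genes, 2 were lowest in liver 6 (8.7%, against 7.74% of all tested genes), so this list showed no excess there like that of the members.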

How the data were processed

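Liver RNA of 8 mice was hybridised to Affymetrix U74Av2 arrays, per the labels, 1 array per mouse. The deposited table held linear intensities, 1 for each probe set on each array. What software read the images, its scaling target, detection calls and any genome build are not given in the sources at hand. Without detection calls a low intensity cannot be told from background, and the number of arrays, 8, limits the precision. Nothing in the labels names a batch.

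The 12422 non-control probe sets were named from GEO's platform annotation; 396 had several symbols and 1193 none, and these were not named. A floor at the 10th percentile, 11.2, was applied and log2 taken. Tested probe sets had a mean log2 signal above the median (6211 probe sets, 4819 genes), and each gene was represented by its brightest. The typical variance was a loess fit (span 0.3) of log variance on signal, corrected to the chi-square median (7 degrees of freedom), in R 4.3.3. limma 3.58.1 gave the alternative variance test, and both were tested on simulated data. With variances as unequal as the real ones, limma's test recovered no raised probe set, while the typical-variance test recovered nearly all but also called many others. A call thus means a spread wider than that of most probe sets of like signal, whatever its source. Pairs of genes were not pooled where a gap with at least 2 livers on each side exceeded 50% of the range. Correlations, permutation tests and figures used Python 3.11.15 with scipy 1.17.1 and matplotlib 3.10.9.

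Values are given for members past the test, the classical heat-inducible genes, the CCT subunits, the 5 widest and 5 narrowest genes, genes with 1 liver apart and genes with several probe sets; Dnajc11, Hspb11, Hspa4l and further members were named for completeness. The members, pairs and lists were chosen with earlier results of these data known. Alternatives were other scalings, floors and filters, removal of probe sets with shared sequence, and leaving out livers. Promoter windows came from RefSeq, assembly GRCm38.p6; protein sequences were not used here.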

Additional observations from a re-analysis of the deposited data

Results flagged for a closer look

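In 3 of the 54 tested member probe sets, 1 liver stood apart from the other 7, with a gap to its nearest neighbour that took up more of the range of log2 signals than Dixon's 95% critical value for 8 samples allows. Chance alone marks about 1 in 20 groups, and 3 of 54 is near that. The share among all tested probe sets was not computed, so the 3 are given as a description only. Cct6a was lowest in liver 3, at 524.2 against 608.9 in the next liver, and the gap was 0.658 of the range. Dnajc4 was lowest in liver 5, at 231.1 against 273.3, with a gap of 0.556 of the range. Dnajc2 (104738_at) was also lowest in liver 5, at 420.3 against 580.1, with a gap of 0.532 of the range. The second Dnajc2 probe set, 101890_f_at, was lowest in liver 6 instead.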

How the results depend on the processing

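Low signals limited the reading: 22 of 76 member probe sets were too dim to test, and small ranges cannot be told from measurement error without repeat arrays. No paired analysis was possible because all livers belong to 1 group. The main count of member probe sets past the variability test was 1 of 54 (1.85%, against 12.4% of all tested probe sets). It was 2 of 54 with median scaling (3.7%, against 10.7%) and 3 of 54 with quantile normalization (5.56%, against 12.6%). Without a filter it was 4 of 76 (5.26%, against 9.02%), and with a filter at the 60th percentile 0 of 43 (against 12.2%). Without livers 4 and 8 it was 3 of 55 (5.45%, against 9.43%), and with limma 0. When 1 liver was left out it was 1 to 4 (1.85% to 7.27%, against 10.6% to 12.2%). Probe sets gained were Hspd1 161140_r_at, Hsp90aa1, Dnajc11, Hspa1l, Hspb11 and Dnajc8 95700_r_at, and Cct3 161238_f_at was lost without liver 7, with the 60th percentile filter and without shared-sequence probe sets. Over all probe sets the count was 772 and 0 with limma, whose test could not make calls on simulated data of this kind. The members' median SD, 0.21, was 0.23 without a filter, 0.20 with the 60th percentile filter, 0.21 without shared-sequence probe sets and 0.20 to 0.21 without 1 liver. Their median pairwise r, 0.03, was 0.12 with median scaling, 0.017 with the 60th percentile filter, 0.048 without livers 4 and 8 and 0.018 to 0.048 without 1 liver. The median r over all tested genes in these settings is not given here. The rise with median scaling can therefore not be read as particular to the members. The r of Hspd1 and Hspe1 ran from 0.81 to 0.94 without 1 liver. That of Hsp90aa1 and Hsph1 ran from -0.19 to 0.71, and was 0.89 without livers 4 and 8. Uncalled pairs changed sign: Tcp1 and Cct3 to -0.16 with median scaling, -0.11 with quantile normalization, -0.28 without shared-sequence probe sets and -0.0087 without livers 4 and 8, and from -0.25 to 0.53 without 1 liver. Leaving out 1 liver gave -0.34 to 0.83 for Hspa9 and Hspd1, -0.31 to 0.54 for Hspa1b and Hsph1, and -0.66 to 0.14 for Cct2 and Cct5. Causes were not tested. Of 661 recomputed fold ranges of member genes, 629 stayed within 1 SD of log2 signal and 32 moved.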
